A study of Homo sapiens with 4 samples.

Results

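The genes described here were chosen by name, and most encode proteins of the splicing machinery. All are called splicing genes below, though some act elsewhere, such as LSM10 and LSM11 of the U7 particle that processes histone pre-mRNA. The names cover heterogeneous nuclear ribonucleoproteins (HNRNP genes), serine and arginine rich splicing factors (SRSF), the SF3A and SF3B subunits, the small nuclear ribonucleoprotein proteins (SNRP), the LSM proteins, the U2AF genes and the PRPF genes. Of the 8568 transcripts listed in all 4 tables, 1 for each gene, 67 carried such a name: 14 HNRNP, 11 SRSF, 7 SF3, 8 SNRP, 13 LSM, 4 U2AF and 10 PRPF. PRPF40B also has such a name but was listed in the G418 B table alone, with 22 CDS reads, and was not counted. Cells of the HEK293T line, derived from human embryonic kidney and carrying the SV40 large T antigen, were profiled by sequencing ribosome protected fragments (RPFs), the stretches of mRNA that a ribosome shields from nuclease digestion. There were 2 untreated libraries (A and B) and 2 libraries (A and B) of cells treated for 24 hr with 500 µg/mL of G418, an aminoglycoside antibiotic that lowers the accuracy of decoding and promotes stop codon readthrough (SCR). For each transcript the tables give RPFs in the 5′UTR, the coding sequence (CDS) and the 3′UTR. They also give the ribosome readthrough score (RRTS): RPF density from the normal termination codon (NTC) to the first in-frame termination codon of the 3′UTR (3′TC), relative to density on the CDS.

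The spliceosome removes introns from pre-mRNA. The U1, U2, U4, U5 and U6 small nuclear RNAs each sit in a particle whose core is a ring of Sm proteins (SNRPB, SNRPD1, SNRPD2, SNRPD3, SNRPF and SNRPG among them), except that the ring on U6 is made of LSM2 to LSM8. SR proteins bind exonic enhancers and recruit the splicing machinery, whereas hnRNP proteins coat nascent RNA and often oppose splice site use. U2AF1 and U2AF2 recognise the 3′ splice site, and the SF3A and SF3B complexes belong to the U2 particle that binds the branch point. The PRPF proteins act in the U4/U6.U5 particle and the catalytic spliceosome. Many SR and hnRNP genes control their own mRNA by alternative splicing of exons that carry premature stop codons, so which transcript stands for such a gene bears on where its NTC is placed.

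Reads on mRNAs ranged from 2440204 to 6082600 per library, with untreated B the shallowest. The genes chosen here held 3.30% and 3.19% of the CDS reads in untreated A and B and 3.14% and 3.11% in G418 A and B. Of the markers looked for, VIM, NEFM and NEFL were listed in each table and LHX1 was listed at 1.60 to 2.60 RPKM. PAX2 was listed in the G418 tables alone, at 1.04 and 1.36 RPKM, and COL1A1, a fibroblast marker, was listed at 3.59 to 5.54 RPKM in each table. The hepatocyte, blood and keratinocyte markers ALB, APOA1, PTPRC, CD3E and KRT5 were not listed, nor was COL1A2. Nothing in the labels gives a batch. No RNA-seq was used here, so a change in RPFs on a CDS cannot be assigned to more mRNA, more ribosomes on each mRNA or another mixture of cells.

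CDS density, in RPKM and therefore per length, spanned a wide range among these genes. HNRNPA2B1, an hnRNP that binds purine-rich RNA, was the densest at a mean of 2244 RPKM over the 4 libraries. HNRNPA1, its close relative, followed among hnRNPs at 1132 RPKM, and HNRNPH1, which binds runs of G, had 840.2 RPKM. The Sm proteins were also dense, with SNRPD2 at 1562, SNRPD3 at 1228 and SNRPB at 1006 RPKM. Among SR proteins SRSF3 had 1101, SRSF2 655.6 and SRSF1 630.7 RPKM. In the SF3B complex the small subunits SF3B5 and SF3B6 had 620.8 and 613.3 RPKM, whereas SF3B1, the large subunit that clasps the branch point helix, had 158.2 RPKM. The densest LSM genes were LSM3 at 446.1, LSM7 at 428.6 and LSM5 at 294.6 RPKM. U2AF2 had 284.6, U2AF1 213.0 and U2AF1L5 211.1 RPKM. Of the PRPF genes, PRPF19, the ubiquitin ligase of the Prp19 complex, had 224.2 RPKM, and PRPF8, the U5 protein at the catalytic center, had 131.5 RPKM. At the low end were U2AF1L4 at 5.88 RPKM and LSM11 at 9.92 RPKM.

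CDS reads of most splicing genes differed little between G418 and untreated cells, and those that passed the test moved in opposite ways by family. Of the 67 genes, all of which were tested, 4 rose (LSM10, LSM4, LSM2 and LSM3) and 6 fell (HNRNPA1L2, HNRNPA1, SNRPD3, SRSF3, SF3B3 and HNRNPM). Over all 8494 transcripts tested by edgeR with an adjusted p-value below 0.05, 5.31% had more CDS reads after G418 and 3.21% had fewer. The 4 that rose are 5.97% of the 67 and the 6 that fell are 8.96%. The median log2 fold change of the 67 was -0.09, against 0.00 over all transcripts tested. Of the 67 fitted values 45 were negative, against 4214 of 8494 over all transcripts tested. Scaling by library totals instead of TMM moved the median of all transcripts from 0.00 to 0.11 and that of the 67 to 0.01. The split became 8 higher (6 LSM genes, HNRNPLL and PRPF18) and 3 lower (HNRNPA1, HNRNPA1L2 and SNRPD3). Over all 8494 transcripts tested it was 887 higher and 120 lower with this scaling.

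**Figure D1:**
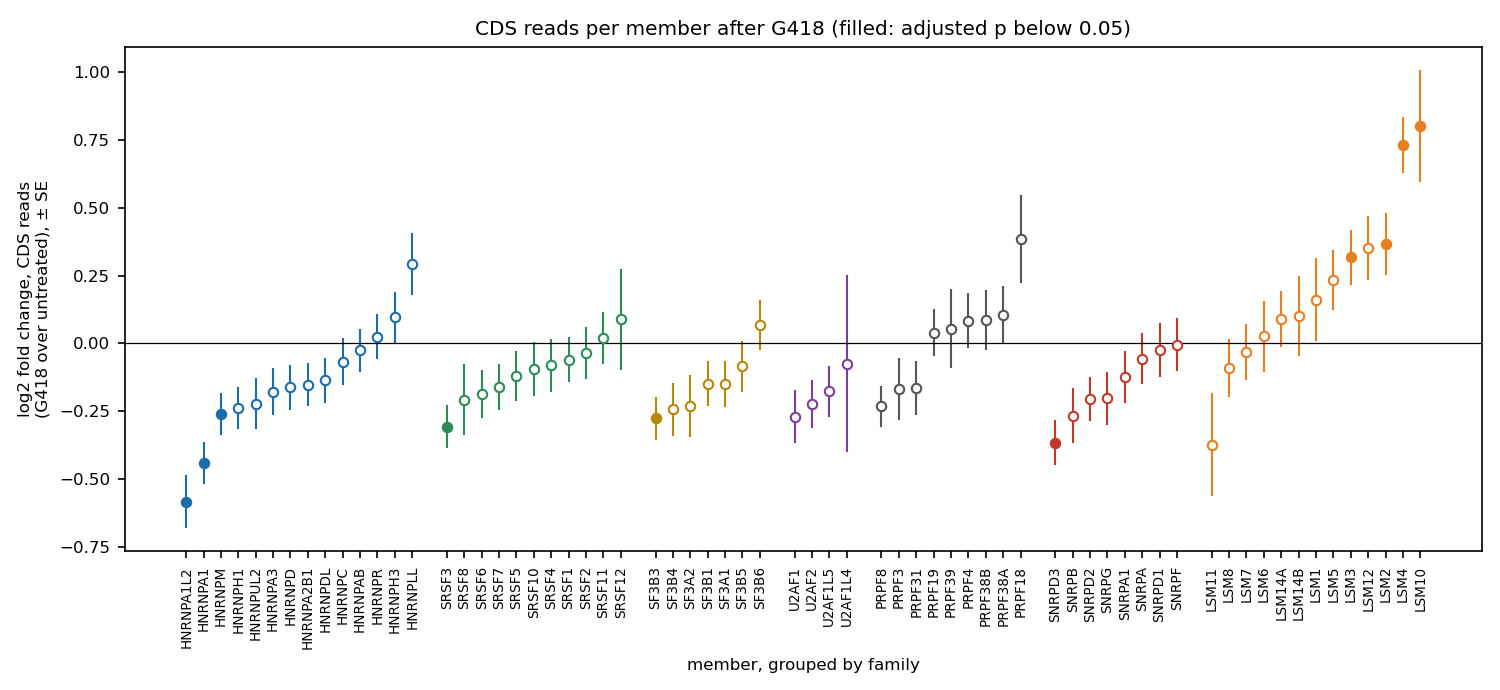
Fitted log2 fold change in CDS reads, G418 over untreated, for 66 of the 67 genes grouped by family, with the standard error as bars and filled points for an adjusted p-value below 0.05. The 4 filled points above 0 are LSM genes, and the 6 filled points below 0 are HNRNP, SRSF, SF3 and SNRP genes.

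With TMM the rises were all in the LSM family, where 4 of 13 genes passed the test, none fell, and the median log2 fold change was 0.16 with TMM. With library totals 6 passed, LSM5 and LSM12 besides, and the median was 0.27. LSM4, a subunit of the U6 ring and of the cytoplasmic LSM1 to LSM7 ring that promotes mRNA decapping, had 105 and 108 CPM (reads scaled to a common library size with TMM) in untreated A and B and 181 and 172 CPM in G418 A and B. Both treated libraries were above both untreated ones, a rise of 1.66-fold (log2 fold change 0.73 ± 0.10 SE, edgeR adjusted p = 3.14e-05). LSM10, which replaces an Sm protein in the U7 particle that processes histone pre-mRNA, had 10.3 and 10.3 CPM untreated and 17.4 and 18.6 CPM after G418. This 1.74-fold rise rested on 57 and 23 CDS reads untreated and 96 and 86 treated (log2 fold change 0.80 ± 0.21 SE, edgeR adjusted p = 0.0113).

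LSM2 rose from 94.2 and 76.9 CPM to 117 and 107 CPM (log2 fold change 0.37 ± 0.11 SE, edgeR adjusted p = 0.0393). LSM3 rose from 193 and 161 CPM to 227 and 219 CPM (log2 fold change 0.32 ± 0.10 SE, edgeR adjusted p = 0.0439). For each of them the treated libraries lay above both untreated ones. The other subunits of the U6 ring had log2 fold changes of 0.23 for LSM5, 0.03 for LSM6, -0.03 for LSM7 and -0.09 for LSM8, none past the threshold. LSM1, which replaces LSM8 in the cytoplasmic ring, had 0.16. LSM12, a protein with an Lsm domain outside the rings, had 0.35 with an edgeR adjusted p of 0.0617, and LSM11, the partner of LSM10 in the U7 particle, had -0.37 with an adjusted p of 0.240.

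Among hnRNPs, 3 of 14 genes fell, none rose, and the median log2 fold change was -0.16 with TMM. With library totals it was -0.05, HNRNPA1 and HNRNPA1L2 fell, and HNRNPLL rose. HNRNPA1, which silences exons and competes with SR proteins, had 2070 and 1898 CPM untreated and 1482 and 1445 CPM after G418 (log2 fold change -0.44 ± 0.08 SE, edgeR adjusted p = 0.000334). HNRNPA1L2, an intronless copy of it, had 249 and 218 CPM untreated and 159 and 154 CPM after G418 (log2 fold change -0.58 ± 0.10 SE, edgeR adjusted p = 0.000215). These values are not independent: 97.0% of the 28 nt windows of the listed HNRNPA1 CDS also occurred exactly in transcripts of other loci, and 62.5% of those of HNRNPA1L2 occurred in HNRNPA1. Reads mapping to several places were kept by the authors at a single alignment, so the split between both genes is uncertain. HNRNPM, an hnRNP with a repeat rich in methionine, shares 0.369% of its windows and fell from 1478 and 1555 CPM to 1257 and 1276 CPM (log2 fold change -0.26 ± 0.08 SE, edgeR adjusted p = 0.0324). HNRNPA2B1 had a log2 fold change of -0.15 (edgeR adjusted p = 0.248) and HNRNPH1 of -0.24 (edgeR adjusted p = 0.0526).

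Of the SR proteins, 1 of 11 fell and none rose, with a median of -0.10, which was 0.01 with library totals. SRSF3, the smallest SR protein, fell from 906 and 936 CPM to 752 and 737 CPM (log2 fold change -0.31 ± 0.08 SE, edgeR adjusted p = 0.0138), and 37.4% of its windows occurred at other loci. SRSF1 had -0.06 with an approximate 95% interval of -0.22 to 0.10, and SRSF2 had -0.03. In the U2 particle, 1 of 7 SF3 genes fell. SF3B3, the SF3B scaffold subunit, had 1047 and 997 CPM untreated and 855 and 835 CPM treated (log2 fold change -0.28 ± 0.08 SE, edgeR adjusted p = 0.0266). SF3B1, its partner, had -0.15 with an approximate 95% interval of -0.31 to 0.01.

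All 8 SNRP genes had negative fitted values with TMM and 5 did with library totals, and 1 passed the test. SNRPD3 fell from 779 and 713 CPM to 593 and 567 CPM (log2 fold change -0.37 ± 0.08 SE, edgeR adjusted p = 0.00492), and none of its windows was shared. SNRPD2, also of the Sm ring, had -0.21 (edgeR adjusted p = 0.110) and SNRPB had -0.27 (edgeR adjusted p = 0.103). None of the 4 U2AF genes passed the test, with fitted values of -0.27 for U2AF1 and -0.22 for U2AF2. None of the 10 PRPF genes passed, with PRPF8 at -0.23 (edgeR adjusted p = 0.0563) and PRPF18, a second step factor, at 0.39 (edgeR adjusted p = 0.138).

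These calls depended on having both G418 libraries, and their number, here and over all transcripts, changed with the library left out. Such fits keep a single library in 1 condition, so medians alone are given here. The median log2 fold change of the 67 was -0.05 without untreated A and -0.11 without untreated B. It was -0.09 without G418 A and -0.09 without G418 B. Over all transcripts tested these medians lay between -0.003 and 0.007. DESeq2 called 1 of the 67 higher (LSM4) and 4 lower (HNRNPA1, HNRNPA1L2, SNRPD3 and SRSF3), against 109 and 134 of all 8494 transcripts tested.

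Another 132 splicing genes were listed in all tables. They cover the snRNP, Prp19, exon junction, Sm assembly and SR kinase groups and regulators of splicing. Of these, 2 (1.52%) had more and 13 (9.85%) fewer CDS reads, against 5.31% and 3.21% of all transcripts tested. Their median log2 fold change was -0.11. With library totals there were 5 and 3 of the 132, against 887 and 120 of all 8494 transcripts tested, and the median was -0.01. EWSR1, an RNA-binding protein, fell by 0.44 on the log2 scale, and the spliceosome proteins YJU2, GPKOW and ESS2 fell by 0.45, 0.44 and 0.43. The 2 that rose were TXNL4A, a small protein of the U5 particle (0.67 ± 0.12 SE), and TIAL1, which binds U-rich sequences near 5′ splice sites (0.44 ± 0.10 SE).

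Readthrough rose on most splicing genes. Summed over the 66 genes with the minimum depth for mRNA reads in each condition, the aggregate RRTS, which is the RPFs before the first 3′TC as a percentage of those that CDS density would place there, was 1.60% and 1.44% in untreated A and B and 16.2% and 14.6% in G418 A and B. The means were 1.52% ± 0.111 and 15.4% ± 1.12 (SD, n = 2), a ratio of 10.1. Treated and untreated libraries did not overlap, and the exact two-sided permutation p was 0.33, the smallest that 2 against 2 libraries can give. Over all 6509 transcripts with that depth the means were 1.9% ± 0.133 and 15.4% ± 0.525 (SD, n = 2). The splicing genes held 234 and 84 RPFs before the first 3′TC in untreated A and B and 2180 and 1638 in G418 A and B.

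**Figure D2:**
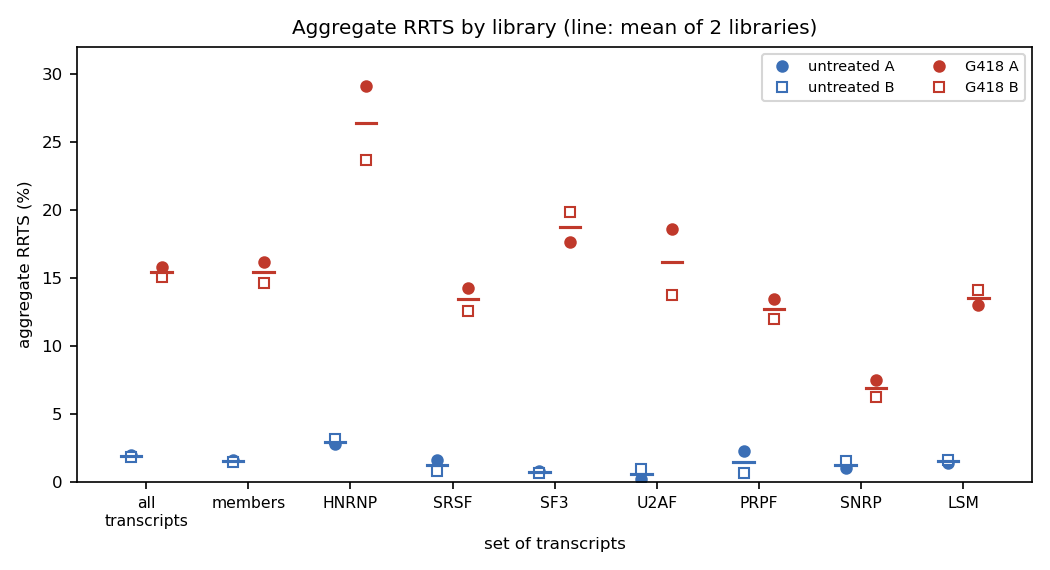
Aggregate RRTS in percent for all transcripts, for the 66 splicing genes with enough mRNA reads and for each family, with 1 point for each library and a line at the mean of 2. The G418 libraries lie above the untreated ones in each set, from a mean of 6.86% for SNRP to 26.4% for HNRNP.

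By family the aggregate RRTS in G418 was highest for the HNRNP genes at 26.4% ± 3.86 and lowest for the SNRP genes at 6.86% ± 0.855, with SF3 at 18.8% ± 1.53, U2AF at 16.2% ± 3.44, LSM at 13.5% ± 0.784, SRSF at 13.4% ± 1.22 and PRPF at 12.7% ± 1.06 (SD, n = 2 each). SNRPD3 and SNRPF had no RPF before the 3′TC, and without them the SNRP value was 11.2% ± 1.51. Untreated, the HNRNP genes were also the highest at 2.94% ± 0.265, and the U2AF genes the lowest at 0.580% ± 0.512. Neighbours in the order of G418 values from SF3 to PRPF lay within or near the spread between libraries, and differences between families were not tested. The sums weigh each gene by its expected RPFs, so single genes can set them. In G418, PRPF19 had 53 RPFs where CDS density would place 1471.5, and SF3B5 had 359 where it would place 1519. The order of families therefore need not hold for most of their genes.

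Tested gene by gene, 51 of the 60 splicing genes with enough reads had a higher RRTS after G418 and none a lower one. Over all 2827 transcripts tested, edgeR called 82.6% higher and 0.0707% lower, so the 85.0% among splicing genes lay near the background. Transcripts with under 10 untreated reads entered the test only through their G418 reads, which favours rises in both shares. No splicing gene had a lower RRTS at an unadjusted p under 0.05, and DESeq2 also called 0 lower, with 40 higher. The fitted log2 fold change had a median of 3.36, against 3.18 for all transcripts tested. The fitted value of a gene without untreated reads depends on the prior count; with such genes set at the bound that 3 reads over both untreated libraries give, the medians were 3.14 and 2.59. By family 12 of 13 HNRNP, 9 of 10 SRSF, 6 of 7 SF3, 5 of 6 SNRP, 8 of 12 LSM, all 3 U2AF and 8 of 9 PRPF genes rose.

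**Figure D3:**
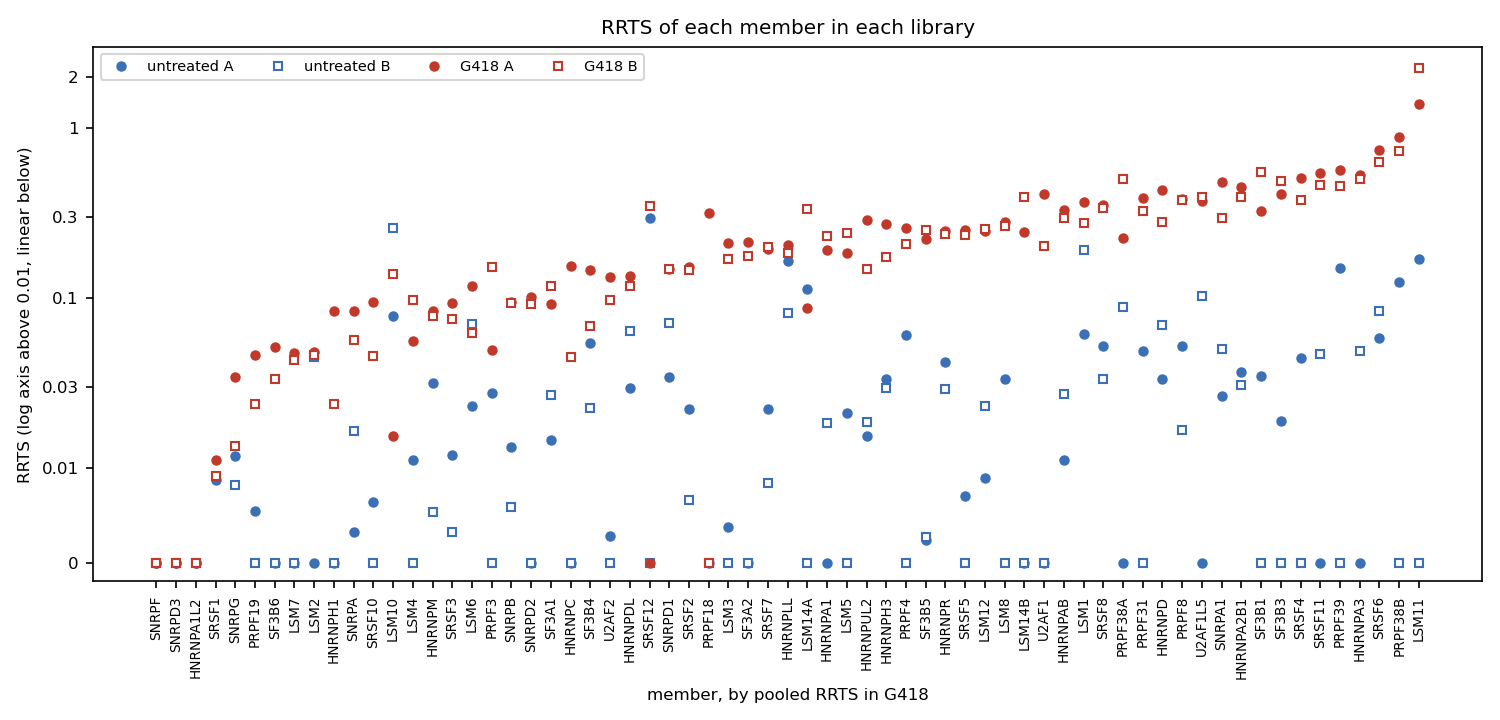
RRTS in each of the 4 libraries for 65 of the 66 splicing genes with enough mRNA reads, ordered by pooled RRTS in G418, on an axis that is logarithmic above 0.01 and linear below. Points of the G418 libraries lie above those of the untreated ones for most genes, and SNRPF, SNRPD3 and HNRNPA1L2 are at 0 in each library.

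The sequences around the NTC are shown for the genes with the 3 highest RRTS values in G418 (LSM11, PRPF38B and SRSF6), for SF3B5, which had the smallest p-value, and for LSM7 and SNRPG, which are among the 5 lowest of those tested. Each runs from 9 nt before the NTC to 17 nt beyond the base that follows it, with the stop codon and that following base in capitals, and comes from GENCODE version 44 (hg38).
LSM11: cuugcacagUGACcagcucagccugagcuu
PRPF38B: gagacugugUGAAaauauuuuguaaaagug
SRSF6: uccagagauUAACucagaacuccuuguuug
SF3B5: gaggagaacUGAGacucugccuuaccaccg
LSM7: caggacgccUAGCcuggccgggggcgcggg
SNRPG: gaacgaguaUAAAuaauggcuguucagcag
The NTC of LSM11 lies at chr5:157755262-157755264 (plus strand), that of PRPF38B at chr1:108700018-108700020 (plus), that of SRSF6 at chr20:43461061-43461063 (plus), that of SF3B5 at chr6:144095237-144095239 (minus), that of LSM7 at chr19:2321680-2321682 (minus) and that of SNRPG at chr2:70281634-70281636 (minus). Each is the end of the annotated CDS and is followed by 3′UTR.

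SF3B5 had the smallest p-value. This small SF3B subunit had 2 and 1 RPFs before its first 3′TC in untreated A and B and 181 and 178 in G418 A and B, over 153 counted nt. Its RRTS went from 0.00233 and 0.00271 to 0.222 and 0.253, a log2 fold change of 6.5 ± 0.35 SE (edgeR adjusted p = 9.69e-71). The pooled ratio was 96.6, with an exact 95% interval of 32.8 to 471 that covers counting error only. The treated value lay close to the median of 0.203 for all UGAG transcripts in G418. HNRNPA2B1 had more RPFs before its 3′TC than any other of these genes, 28 and 8 untreated and 287 and 204 after G418. Its RRTS rose from 0.0367 and 0.0308 to 0.451 and 0.391 (log2 fold change 3.58 ± 0.20 SE, edgeR adjusted p = 6.05e-66).

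LSM3 had 1 and 0 RPFs untreated and 65 and 43 after G418, and its RRTS rose from 0.00373 and 0 to 0.210 and 0.169 (log2 fold change 5.84 ± 0.64 SE, edgeR adjusted p = 2.59e-18). U2AF2, the large subunit that binds the polypyrimidine tract, had 1 and 0 RPFs untreated and 43 and 28 treated, with an RRTS of 0.133 and 0.0977 in G418 (log2 fold change 5.66 ± 0.69 SE, edgeR adjusted p = 5.3e-15). With such few untreated reads the pooled ratios, 68.4 for LSM3 and 62.0 for U2AF2, have exact 95% intervals of 12 to 2727 and 10.8 to 2482. LSM3 shared 40.1% of its windows with other loci and U2AF2 none.

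No RPF before the first 3′TC was counted in either untreated library for 8 of the tested genes. A gene of this kind entered the test only through its G418 reads, so that these 8 were called higher is no result about them. For LSM7, a subunit of both LSM rings, 20 and 16 RPFs were counted in G418 A and B, at least 9.15-fold more for each CDS read than 3 reads over both untreated libraries would give. The same bound was at least 8.24-fold for SNRPD2 (16 and 12 RPFs), 7.46-fold for SF3B6, the subunit that contacts the branch point adenosine (20 and 10 RPFs), and 7.25-fold for U2AF1 (17 and 7 RPFs). It was 6.60-fold for SF3A2 (13 and 10 RPFs), 5.03-fold for LSM14B (10 and 11 RPFs), 3.36-fold for HNRNPH1 (9 and 2 RPFs) and 3.02-fold for HNRNPC (9 and 2 RPFs). U2AF1 shares its whole CDS with its copy U2AF1L5, which had 0 and 2 RPFs untreated and 16 and 14 in G418. The counting kept 1 alignment for each read, so the untreated count of 0 and the bound of U2AF1 are uncertain. With DESeq2 HNRNPH1 (adjusted p = 0.0632) and HNRNPC (adjusted p = 0.0769) were not called, nor were they by edgeR without untreated A (adjusted p = 0.0684 and 0.0838). Of the other tested genes, 25 had 1 to 3 untreated reads and 27 had more than 3. Those with under 10 untreated reads also reached the minimum of 10 only through G418 reads. Their calls, those of LSM3, U2AF2, SF3B5 and LSM11 among them, are likewise no result by themselves.

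The highest treated RRTS belonged to LSM11, with 7 and 8 RPFs before the 3′TC and an RRTS of 1.39 and 2.26, against 0.170 and 0 untreated (log2 fold change 3.59 ± 1.08 SE, edgeR adjusted p = 0.00174). CDS density would place 8.57 RPFs there, and the pooled RRTS of 1.75 has an exact 95% interval of 0.979 to 2.89, so it could not be told apart from CDS density at this depth. PRPF38B, a protein of the precatalytic spliceosome, had an RRTS of 0.892 and 0.732 in G418 against 0.125 and 0 untreated (edgeR adjusted p = 0.00147). With DESeq2 LSM11 (adjusted p = 0.0537) and PRPF38B (adjusted p = 0.0579) were not called. SRSF6, an SR protein with its own regulated premature stop exon, had 0.739 and 0.631 against 0.0583 and 0.0844 (log2 fold change 3.34 ± 0.42 SE, edgeR adjusted p = 2.71e-14), and shared 47.7% of its windows with other loci.

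HNRNPA3 had an RRTS of 0.531 and 0.505 in G418 and 0 and 0.0487 untreated (edgeR adjusted p = 1.14e-18), with 94.0% of windows shared. PRPF39, a homolog of a yeast U1 protein, had 0.564 and 0.457 against 0.150 and 0 (edgeR adjusted p = 0.0247), and lost its call with DESeq2 (adjusted p = 0.169) and by edgeR without G418 A (adjusted p = 0.131) or G418 B (adjusted p = 0.0640). The pooled G418 values of SRSF6, PRPF38B, HNRNPA3 and LSM11 were each above the median for transcripts with the same stop codon and following base, which was 0.223, 0.277, 0.120 and 0.390. Of all 66 genes, 33 lay above that median and 33 below.

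Of the other genes with many RPFs before the 3′TC, SRSF3 rose from 0.0120 and 0.00322 to 0.0938 and 0.0755 (log2 fold change 3.18 ± 0.28 SE, edgeR adjusted p = 3.07e-27). SRSF2, which also binds exonic enhancers, reached 0.153 and 0.146 from 0.0222 and 0.00658 (edgeR adjusted p = 4.02e-22). HNRNPAB rose from 0.0112 and 0.0274 to 0.329 and 0.297 (edgeR adjusted p = 1.09e-24), and HNRNPD, which also binds AU-rich elements, from 0.0333 and 0.0693 to 0.433 and 0.279 (edgeR adjusted p = 1.31e-23). In each of these 4 genes both treated libraries lay above both untreated ones, and 56 of the 60 tested genes rose in both lettered pairs. SF3B3 went from 0.0189 and 0 to 0.408 and 0.491 (edgeR adjusted p = 2.75e-21), the highest pooled RRTS among the SF3 genes, and PRPF8 from 0.0524 and 0.0167 to 0.381 and 0.380 (edgeR adjusted p = 5.58e-13). HNRNPAB, SF3B3 and PRPF8 had 6, 3 and 9 untreated RPFs, so they reached the minimum of 10 only through G418 reads.

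At the other end, SRSF1, which binds exonic enhancers and regulates its own mRNA, had 5 and 2 RPFs untreated and 6 and 4 after G418. Its RRTS was 0.00870 and 0.00916 untreated and 0.0111 and 0.00912 treated, and the libraries overlapped (log2 fold change 0.20 ± 0.80 SE, edgeR adjusted p = 0.808). SNRPG, an Sm ring protein, had 0.0119 and 0.00822 untreated and 0.0345 and 0.0135 after G418 (log2 fold change 1.18 ± 0.81 SE, edgeR adjusted p = 0.160), with 96.1% of its windows shared. PRPF19 rose from 0.00542 and 0 to 0.0462 and 0.0238 (edgeR adjusted p = 3.58e-07), SF3B6 reached 0.0518 and 0.0334, and LSM7 reached 0.0474 and 0.0432. SF3B6 and LSM7 had no untreated reads, so they are among both the lowest treated values and the largest fitted rises.

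The other tested genes without a call were LSM10, HNRNPLL, LSM14A, SF3B4, LSM6, LSM1 and PRPF3, with fitted log2 fold changes of -0.79 to 2.03. LSM10 was the one gene with a lower fitted RRTS, from 0.0783 and 0.259 to 0.0155 and 0.138 (log2 fold change -0.79 ± 0.83 SE, edgeR adjusted p = 0.355), and its approximate 95% interval of -2.41 to 0.83 includes 0. The 7 genes not tested were U2AF1L4, which lacked the mRNA reads, SNRPF, SNRPD3 and HNRNPA1L2, which had no RPF before the 3′TC, and LSM2, SRSF12 and PRPF18, which had under 10. HNRNPLL, a relative of HNRNPL that regulates exons of the CD45 gene in lymphocytes, had an RRTS of 0.165 and 0.0822 untreated and 0.207 and 0.184 after G418 (edgeR adjusted p = 0.561).

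The listed transcript placed the NTC of some splicing genes elsewhere than the MANE Select transcript, which is the 1 transcript per gene that RefSeq and Ensembl share as representative. Of the 64 genes whose listed transcript matched GENCODE version 44, 57 had the MANE Select NTC and 7 had another: HNRNPH1, SNRPB, SNRPD3, SNRPF, SRSF1, SRSF10 and U2AF1L4. In each of the 7 the listed NTC lay 3′ of the MANE Select one on the genome, by 84 bases for SNRPD3, 121 for U2AF1L4, 173 for SNRPB, 387 for SRSF1, 705 for HNRNPH1, 3479 for SRSF10 and 37431 for SNRPF. The study chose for each gene a transcript with the 3′-most stop codon, so this direction follows from the choice. The listed SNRPF has 127 codons against 86 in MANE Select, and the listed SRSF10 183 against 262. The sequences around both NTCs are given for the genes with the lowest RRTS among them, in the same layout as above.
SNRPD3, listed: cauauaugcUAGGucccagagaaaaaccuc
SNRPD3, MANE Select: aagcgaagaUAAUuuucuaaguugaacaga
SNRPF, listed: uuuuaccauUAGAuauguaauguuagugau
SNRPF, MANE Select: augagagaaUAGCaucuuuugugggggauu
SRSF1, listed: gagauggauUAAGaaugcuuuggauuaagg
SRSF1, MANE Select: ucucguacaUAAGaugauuggugacacuuu
The listed and MANE Select NTCs of SNRPD3 lie at chr22:24572059-24572061 and chr22:24571975-24571977 (plus strand). Those of SNRPF lie at chr12:95903500-95903502 and chr12:95866069-95866071 (plus), and those of SRSF1 at chr17:58005019-58005021 and chr17:58005406-58005408 (minus).

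SNRPD3 and SNRPF had no RPF between the listed NTC and its 3′TC in any of the 4 libraries. CDS density would have placed 1653 RPFs there for SNRPD3 in the G418 libraries, so a count of 0 allows an RRTS of up to 0.00181. For SNRPF the figures were 211 and 0.0142. SRSF1, without a detectable change, also belongs to these 7 genes. SNRPB, HNRNPH1 and SRSF10 were called higher, but they had 5, 0 and 1 untreated RPFs and entered the test only through their G418 reads. Their calls are therefore no result by themselves. The RRTS of SNRPB was 0.0132 and 0.00593 untreated and 0.0946 and 0.0937 in G418 (log2 fold change 3.09 ± 0.56 SE, edgeR adjusted p = 1.85e-07). That of SRSF10 was 0.00641 and 0 untreated and 0.0943 and 0.0455 in G418 (edgeR adjusted p = 0.00130). SRSF10 was not called with DESeq2 (adjusted p = 0.0567), nor was HNRNPH1.

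All 6 of these genes with enough mRNA reads had a pooled G418 RRTS below the median for their stop codon and following base, as did 27 of the 57 with the MANE Select NTC. Their median was 0.0338, with a highest value of 0.0942, against 0.210 for the 57. Over all transcripts with that depth the medians were 0.000644 for the 470 listed with another NTC, 50% of which had no RPF before the 3′TC in G418, and 0.223 for the 5792 with the MANE Select NTC, 8.77% of which had none. The aggregate RRTS of splicing genes in G418 was 16.3% ± 1.08 over the 57 and 2.33% ± 0.358 over the 6 (SD, n = 2). What part the choice of transcript has in these values was not tested.

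**Figure D4:**
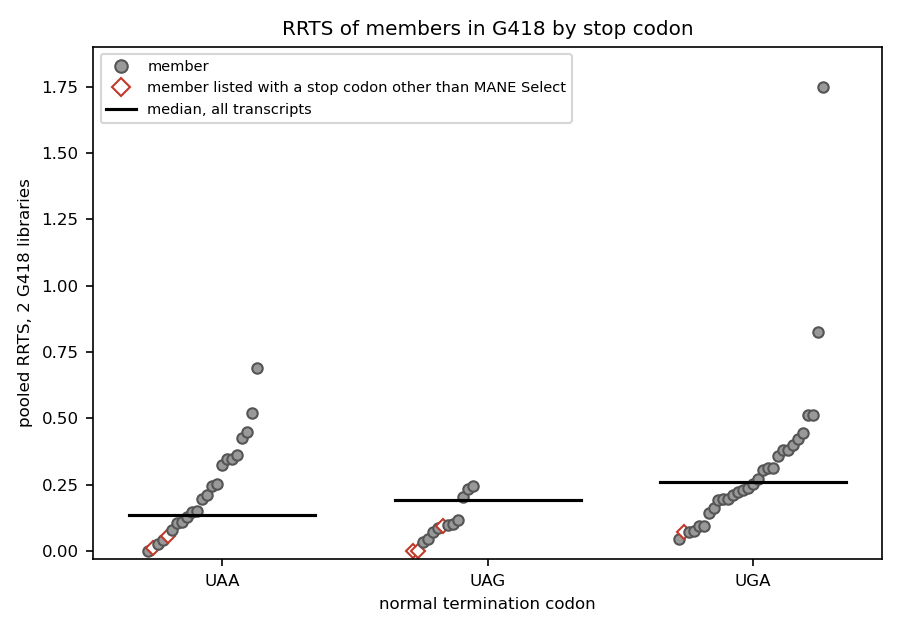
Pooled RRTS in the 2 G418 libraries for each of the 66 genes by stop codon, with diamonds for genes listed with a stop codon other than that of MANE Select and a line at the median of all transcripts. The 6 diamonds lie between 0 and 0.0942, below each line.

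The splicing genes used UAA more and UGA less than the whole table: 24 of 67 (35.8%) ended in UAA, 13 (19.4%) in UAG and 30 (44.8%) in UGA, against 27.7%, 22% and 50.3% of all transcripts. A C followed 6 of 67 NTCs (8.96%), against 23.2% of all transcripts, and an A followed 38.8% against 30%. In G418 the median pooled RRTS of splicing genes was 0.197 at UAA, 0.0942 at UAG and 0.244 at UGA, and that of all transcripts was 0.138, 0.192 and 0.260. The 3 genes at 0 besides U2AF1L4 ended in UAA (HNRNPA1L2) or UAG (SNRPD3 and SNRPF). Only 2 of the 66 ended in UGAC, LSM11 and PRPF8, at 1.75 and 0.381.

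RPFs thinned out beyond the first 3′TC. For the 66 genes, RPF density after the first 3′TC was 8.53% and 8.37% of that before it in untreated A and B and 3.49% and 3.43% in G418 A and B, and over all transcripts with that depth it was a mean of 8.24% untreated and 2.83% treated. The U2AF genes kept the most in G418, a mean of 20.8% ± 1.78, followed by the SNRP genes at 13.6% ± 0.687, and the SF3 genes the least, 1.37% ± 0.230 (SD, n = 2 each). The U2AF value rested on U2AF1 and its copy U2AF1L5, with 18 and 24 RPFs after the 3′TC in G418, while U2AF2 had 2 after and 71 before. Untreated, the U2AF genes had 180% and 30%, from 4 RPFs after the 3′TC. SNRPB, listed with another NTC, had 282 RPFs after its first 3′TC in the G418 libraries and 51 before it. SF3B5 had 25 after and 359 before.

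RPFs in 5′UTRs were abundant on a few splicing genes and no change was detected in the genes tested. Per 100 CDS reads, the 65 genes with the minimum CDS reads in each condition had 6.35 and 7.20 5′UTR reads in untreated A and B and 5.93 and 6.18 in G418 A and B (6.77 ± 0.603 and 6.06 ± 0.180, SD, n = 2, exact two-sided permutation p = 0.33). All transcripts with that depth had 4.88 ± 0.479 and 4.42 ± 0.082. HNRNPA2B1 held 28.4% to 29.6% of the 5′UTR reads of splicing genes in each library. Of the 52 genes tested, none was called in either direction by edgeR or DESeq2. Over the 3656 transcripts tested 1.7% were called lower and 0.0274% higher. At an unadjusted p under 0.05 by edgeR 13 of the 52 (25%) were lower and 0 higher, against 11.5% lower and 2.30% higher of all transcripts tested. The median log2 fold change was -0.25, against -0.16 for all transcripts tested. Negative fitted values were found for 40 of the 52 genes, and for 2296 of the 3656 transcripts.

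**Figure D5:**
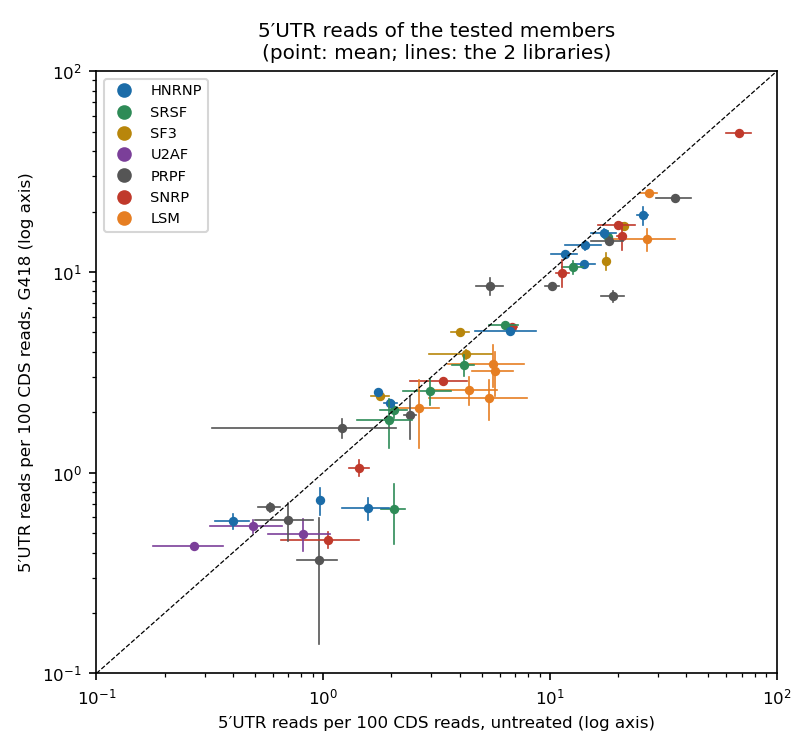
5′UTR reads per 100 CDS reads in G418 against untreated cells for the 52 tested genes on logarithmic axes, with a point at the mean of 2 libraries, lines that span both, and a dashed line of equality. Most points lie on or just below equality, and SNRPF is the highest at 59.5 and 77.0 untreated and 49.0 and 49.9 treated.

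LSM10 carried the most 5′UTR reads for its CDS reads, 151 and 217 per 100 in untreated A and B and 110 and 112 in G418 A and B, and was not tested since its untreated CDS reads were under the minimum. SNRPF, of which 26.3% of CDS windows occurred at other loci, had 59.5 and 77.0 per 100 untreated and 49.0 and 49.9 treated (log2 fold change -0.45 ± 0.12 SE, edgeR adjusted p = 0.0918), with no overlap between conditions. PRPF38A, a protein of the precatalytic spliceosome, had 41.8 and 29.3 untreated and 23.8 and 23.0 treated (log2 fold change -0.63 ± 0.20 SE, edgeR adjusted p = 0.154). HNRNPC, which binds U-rich RNA and forms a tetramer on pre-mRNA, had 24.3 and 27 untreated and 17.2 and 21.1 treated (log2 fold change -0.42 ± 0.10 SE, edgeR adjusted p = 0.0580), and LSM1 had 25 and 29.7 untreated and 24.8 and 24.9 treated.

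Counts of 5′UTR calls depended on which untreated library was kept, among these genes and over all transcripts tested. The median log2 fold change of these genes was -0.40 without untreated A and -0.14 without untreated B. Over all transcripts tested it was -0.33 and -0.04. Calls of more 5′UTR reads per CDS read, for HNRNPD and SF3B3, came in the fit without untreated B alone. With all libraries HNRNPD overlapped between conditions, at 10.2 and 13.2 per 100 untreated and 12.8 and 11.8 treated. SF3B3 did not, at 3.65 and 4.38 untreated and 5.17 and 4.86 treated (edgeR adjusted p = 0.406). By family all 7 LSM and all 8 SNRP genes tested had negative fitted values, with medians of -0.51 and -0.39. Over all transcripts tested 2296 of 3656 were negative too, with a median of -0.16. Some of these genes had few reads: LSM14B rested on 7 and 5 5′UTR reads untreated and 8 and 4 in G418. The 15 genes not tested were LSM10 and 14 with under 20 5′UTR reads, and no 5′UTR read was counted for SRSF3, HNRNPA3 or U2AF1L4 in any library.

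Sequence shared with other loci limits some of these values, since the counting kept 1 alignment for each read. More than 50% of the 28 nt CDS windows of 9 genes occurred exactly in transcripts of other loci: U2AF1 and LSM12 (100% each), HNRNPA1, SNRPG, HNRNPA3, HNRNPC, SNRPA1, HNRNPA1L2 and SNRPD1. U2AF1 shares its whole CDS with a copy listed as U2AF1L5, which had almost the same CDS density as U2AF1, 211.1 and 213.0 RPKM. HNRNPA1 and HNRNPA1L2 have the same 30 bases around their NTC, and HNRNPA1 had 20 and 20 RPFs before the 3′TC in G418 where HNRNPA1L2 had none. CDS density would have placed 20.5 RPFs there for HNRNPA1L2, so a count of 0 allows an RRTS of up to 0.147. Among the 42 genes with under 10% of windows shared, 3 had more CDS reads (LSM10, LSM4 and LSM2) and 3 fewer (SNRPD3, SF3B3 and HNRNPM).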

How the data were processed

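Members and gene lists were chosen with earlier results of these data known. Per the labels and the study's methods, the authors deduplicated reads by molecular identifier, discarded noncoding RNA and aligned the rest with STAR to hg38 (GENCODE version 30, 1 transcript per gene, 1 alignment kept per read). Base calling used CASAVA 1.8, per the labels. The deposited counts are full-length RPFs (28 to 35 nt) per region, without normalization. The deposited RPM values hold these RPFs per library size, the RPKM values are RPM per CDS length, the ratio values are RRTS, and the 5′UTR density, a score, was not used. The authors left out 6 nt after the NTC. All RPM values (100%) gave whole reads within a tolerance of 0.01 reads, and deposited counts equalled those reads or 1 less, in G418 A for 99.9% of CDS values and in G418 B for 38.0%.

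CDS counts were tested with edgeR 4.0.16 (quasi-likelihood, TMM, filterByExpr). RPFs before the first 3′TC (at least 10 over the libraries, 128 mRNA reads per condition) and 5′UTR RPFs (at least 20, and 128 CDS reads per condition) were tested likewise on recovered reads with log(CDS reads + 0.5) as offset. Benjamini-Hochberg adjustment ran over each whole table with a threshold of 0.05, and standard errors came from the F statistic. A bound used 3 reads over both untreated libraries. Stop codons and 28 nt windows came from GENCODE version 44, using transcripts equal in CDS length, stop context and first 3′TC. Exact intervals and bounds cover counting error only, while approximate intervals of fold changes use the standard error of the fit. Replicates are 2 cultures per condition, called biological replicates by the study, and p-values measure the spread between them. Tests were checked on simulated data with a dispersion that was set, not estimated from these data, and with rates pooled over both conditions. In the simulated data 200 transcripts had 2- or 3-fold changes. There edgeR recovered 93.5% of them for CDS reads, 35% for RRTS and 55% for 5′UTR reads. False calls were 4.1%, 1.41% and 0% of the calls. These shares describe that setting, and those of the real tests were not measured. A gene without a call for RRTS or 5′UTR reads may therefore still have changed. Alternatives were DESeq2 1.42.0, library totals, no filter, recovered reads, other minimum reads, the whole 3′UTR, the replicate letter as a block, and leaving out each library.

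Genes named are, per comparison, up to 10 largest changes each way past the threshold and alike in both lettered pairs, the 3 densest per family, the 5 highest and 5 lowest RRTS in G418, the 5 with most 5′UTR reads, those sharing sequence, and up to 5 largest changes each way of the other splicing genes. Other genes named were chosen after their values were seen. Of the genes this rule chose, 2 are not reported here by name, and 1 of them is left out of the plots that label genes. Software comprised matplotlib 3.10.9, scipy 1.17.1, pandas 2.3.3, numpy 2.4.6, Python 3.11.15 and R 4.3.3.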

Additional observations from a re-analysis of the deposited data

How the results depend on the processing

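Depth limits the readthrough test: untreated B had 2440204 mRNA reads and the genes had 84 RPFs before the 3′TC in it. Genes with more CDS reads numbered 4, against 1 with DESeq2 and 8 with library totals, and 1 to 10 when a library was left out. Those with fewer numbered 6, against 3 with library totals, 11 with the replicate block and 0 to 27 when a library was left out; among genes with under 10% shared windows, an alternative chosen after seeing the data, there were 3. Other splicing genes with more CDS reads numbered 2, against 5 with library totals and 0 to 6 when a library was left out, and those with fewer 13, against 7 with DESeq2, 3 with library totals and 1 to 48. Genes with higher RRTS numbered 51, and 40 to 55 under every alternative. Fewer 5′UTR reads were called for 0 genes, against 1 (HNRNPC) with a minimum of 10 reads, 2 with the replicate block and 0 to 9 when a library was left out; more for 0, and 0 to 2. The aggregate RRTS was 1.66% untreated and 19.95% in G418 as a median over genes, and 1.64% untreated over genes with the MANE Select NTC, also chosen after seeing the data. 5′UTR reads per 100 CDS reads were 2.35 and 2.42 as medians, and 5.43 and 4.83 without HNRNPA2B1, a choice likewise made later. The SNRP aggregate in G418 was 11.2% without SNRPD3 and SNRPF, also a later choice. PRPF39 lost its RRTS call with the replicate block (edgeR adjusted p = 0.0648). The replicate block changed no other count by over 1.5 times; the deviations of A and B correlated at 0.196 between conditions, and the letters were not taken to pair the cultures. The number of calls over all transcripts tested also changed between the settings. The cause of these changes was not tested. None of the 10 genes called for CDS reads, nor of the 18 followed for RRTS, reversed direction in the alternatives that tested them. Other named genes were not followed in this way, and some fitted values for CDS reads changed sign with library totals.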
